A study of Mus musculus with 6 samples.

Results

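Integrins are cell-surface receptors made of 1 alpha and 1 beta subunit, and the focal adhesion plaque is the set of cytoplasmic proteins that ties them to actin. Transcripts of 46 such genes were compared between aortas of Mymsl KO and Mymsl WT mice, out of 53735 rows in the count table. The 46 are every row whose name starts with Itga or Itgb (29 rows, the Itgb1bp names left out) and 17 plaque genes chosen by name, from vinculin (Vcl) to the adaptor Bcar1. The name pattern took 18 alpha and 9 beta rows and 2 rows that are not subunits: Itgbl1, a secreted protein with integrin-like repeats, and Itgb3bp, a nuclear protein named for binding the beta 3 tail.

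Each alpha subunit sets which matrix protein is bound, and the short tail of the beta subunit binds talin and kindlin inside the cell. Talin exposes sites for vinculin when it is stretched, vinculin and alpha-actinin hold actin, and kindlin recruits the complex of integrin-linked kinase, parvin and PINCH. In the aortic media, these plaques lie as dense bands along each smooth muscle cell and couple its contractile filaments to elastic lamellae and collagen.

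Mymsl is a long noncoding RNA gene, and the comparison addresses which aortic transcripts depend on it. Each genotype had 3 libraries. Per the labels' protocols, the aortic media was purified for its smooth muscle cells before total RNA was taken, and a stranded poly(A) kit was used. The series' design text speaks of 3 pairs of mice, without saying which libraries form a pair. The sources used here do not give the knockout allele, the strain, the age or what defines a pair, and nothing says outright that each library is 1 mouse, so p-values measure only the spread between these libraries, which may be technical. The tissue is bulk, so fewer cells of a type and less RNA per cell cannot be told apart.

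Total counts per library lay between 20048216 and 25521123. No row is named Mymsl, so the targeted gene was not checked under its own name. In edgeR's quasi-likelihood test with Benjamini-Hochberg adjustment, the call rule used below for every gene, 1 of 14145 rows passed: RP23-57D10.3, with 314, 378 and 273 counts in WT replicates 1, 2 and 3 and 0 in each KO library. Mitochondrially encoded genes held 7.51% ± 1.70 (SD, n = 3) of counts in WT and 14% ± 4.53 (SD, n = 3) in KO, with p = 0.1 in an exact two-sided permutation test, which cannot go lower with this number of libraries. KO replicate 1 had the highest share (18.9%) and the highest heart muscle markers, and KO replicate 3 the highest endothelial and macrophage markers. The 9 smooth muscle markers (Acta2, Myh11, Tagln and others) summed to between 52133 and 55621 CPM (counts scaled to a common library size) in WT and between 43396 and 57461 CPM in KO. Of these 9, 8 had a log2 fold change of KO over WT below 0, with a median of −0.13. Above 0 were 11 of 12 macrophage markers, 8 of 10 endothelial, 6 of 6 fat cell and 7 of 8 tested heart muscle markers, and below 0 were 5 of 5 red blood cell markers. These counts depended on single libraries. Without KO replicate 3, 8 of 12 macrophage, 4 of 6 fat cell and 4 of 10 endothelial markers were below 0. Without KO replicate 1, 3 of 8 heart muscle markers were below 0.

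The promoters of 3 members are shown first: Vcl and Fermt2, the only tested members whose window held the element described next, and Itga8, the most abundant alpha chain, whose window held none. The pair was picked for the element, after it was searched for. They come from RefSeq on GRCm38.p6, 250 bases before to 50 bases after the annotated start, 5′ to 3′ on the strand of the gene. Capitals mark the CArG box, the 10-letter element known to be bound by serum response factor, which drives many smooth muscle genes. A regular expression for its consensus (2 C, then 6 letters that are A or T, then 2 G) was searched; it reads the same on both strands.
Vcl, chr14:20929148-20929447, plus strand: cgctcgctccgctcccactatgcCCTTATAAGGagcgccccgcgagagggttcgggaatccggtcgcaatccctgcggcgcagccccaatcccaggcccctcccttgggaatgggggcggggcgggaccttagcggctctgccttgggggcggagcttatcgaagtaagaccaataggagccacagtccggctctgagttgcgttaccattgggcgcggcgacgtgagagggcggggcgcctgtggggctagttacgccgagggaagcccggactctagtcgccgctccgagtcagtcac
Fermt2, chr14:45530016-45530315, minus strand: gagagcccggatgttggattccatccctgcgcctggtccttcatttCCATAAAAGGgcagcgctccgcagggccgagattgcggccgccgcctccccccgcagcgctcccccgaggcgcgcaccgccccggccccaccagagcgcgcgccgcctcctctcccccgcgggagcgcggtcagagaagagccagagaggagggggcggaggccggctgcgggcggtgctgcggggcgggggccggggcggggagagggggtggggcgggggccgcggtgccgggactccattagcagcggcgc
Itga8, chr2:12301895-12302194, minus strand: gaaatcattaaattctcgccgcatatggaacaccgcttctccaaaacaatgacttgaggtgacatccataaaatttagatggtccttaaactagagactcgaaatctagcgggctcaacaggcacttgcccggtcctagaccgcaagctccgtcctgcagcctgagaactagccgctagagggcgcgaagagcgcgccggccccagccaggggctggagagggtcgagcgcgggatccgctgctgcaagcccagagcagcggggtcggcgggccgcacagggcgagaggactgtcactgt
The box began 227 bases before the start of Vcl (CCTTATAAGG) and 204 bases before that of Fermt2 (CCATAAAAGG), and the windows of Itga8, Itga9 and Pgm5 held none. The Itga9 window (chr9:118711442-118711741) lies inside the gene, whose GENCODE M21 start is at 118606690, so the promoter at that start was not searched. Itgb3 had no window. Of the 33 members with a window in that table, 3 (9.09%) held a CArG box: Vcl, Fermt2 and the barely detected Itgb6, at the second of its starts. Of all 27025 genes in the table, 488 (1.81%) held one, and of all 32851 windows 535 (1.63%). Of tested members with a window, 2 of 29 (6.90%) held one, against 165 of 9789 tested rows (1.69%). Over the 165 tested rows with such a window, the median log2 fold change of KO over WT was −0.014, against 0.0084 over the 9624 tested rows with a window and no box. A match is only a run of letters and not a measured binding site.

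More adhesion genes had lower than higher levels in KO, and 0 passed the main test. Of 39 members that passed the filter on low counts, 28 had a log2 fold change (KO over WT) below 0 and 11 above, with a median of −0.10. Over all 14145 tested rows the median was 0.012 and 47.5% were below 0. In edgeR 0 members passed in either direction, against 0.00707% of all rows called lower and 0% called higher. At an unadjusted p under 0.05, 9 members were lower and 0 higher, where 7.76% of all rows were lower and 6.8% higher. DESeq2, a second count test, gave an adjusted p to 32 members and called 6 of them lower (Vcl, Fermt2, Itga8, Itga9, Itgb3 and Pgm5) and 0 higher, where 1.49% of the rows with an adjusted p were called lower and 0.728% higher. Without the filter on low counts, Pgm5 was not among them (adjusted p = 0.0539 in DESeq2), so that 5 members were called lower and 0 higher, where 1.22% of rows with an adjusted p were called lower and 0.627% higher. All 3 KO libraries lay below all 3 WT libraries for 12 members and above for 1, where 11.3% of all rows lay wholly below and 10.5% wholly above. The plot of fold changes by role shows where in the adhesion these members lie.

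**Figure D1:**
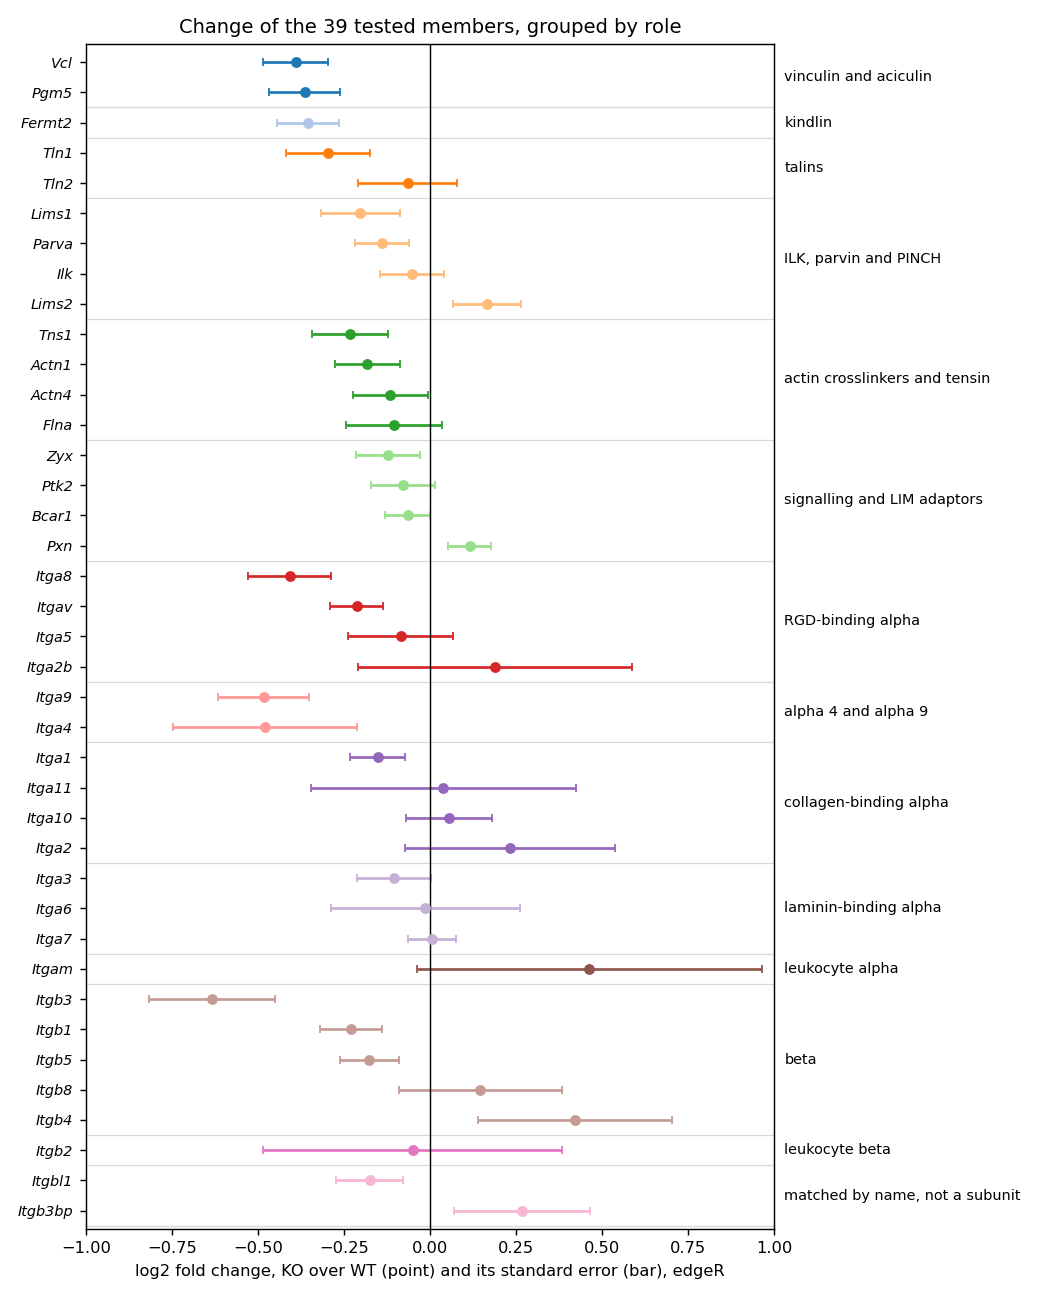
Log2 fold change of KO over WT (horizontal axis, with its standard error as a bar) for the 39 members that passed the filter, grouped by role, 1 point per gene. Vcl, Pgm5, Fermt2, Itga8, Itga9 and Itgb3 lie between −0.63 and −0.35, and the 4 widest bars belong to Itgam, Itgb2, Itga2b and Itga11, which had few counts.

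Vinculin, which joins talin to actin, and aciculin (Pgm5), a protein of muscle attachments, had the lowest fold changes of the plaque. Vcl, at chr14:20929398-21033676 (GRCm38, GENCODE M21, plus strand), measured 1114, 1181 and 1176 CPM in WT and 808, 988 and 853 CPM in KO, with values here and below in the order of replicates 1, 2 and 3. All KO values were below all WT values, with KO replicate 1 lowest. The log2 fold change was −0.39 ± 0.095 (± is the SE for every log2 fold change), which did not pass in edgeR (adjusted p = 0.263) and passed in DESeq2 (adjusted p = 0.00903). Of the exon bases of Vcl, 25.5% overlap those of Ap3m1 on the other strand, and whether the authors' counting used strand is not given, so reads there cannot be told apart.

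Pgm5, a phosphoglucomutase relative found at muscle adhesions, lies at chr19:24683016-24861855 on the minus strand. It measured 317, 357 and 367 CPM in WT and 239, 265 and 304 CPM in KO. The groups did not overlap, and KO replicate 3 came closest to WT. Its log2 fold change was −0.36 ± 0.104 (adjusted p = 0.270 in edgeR and 0.0491 in DESeq2).

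Kindlin-2 (Fermt2), which binds the beta tail beside talin and is needed for integrin activation, had a difference about as large as that of vinculin. Fermt2 lies at chr14:45458795-45530118 on the minus strand. It measured 453, 405 and 492 CPM in WT and 337, 371 and 348 CPM in KO. Every KO library was below the lowest WT library, and the 3 KO values lay closer together than the WT values. The log2 fold change was −0.35 ± 0.089 (adjusted p = 0.264 in edgeR and 0.0251 in DESeq2).

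The 2 talins are the link between beta tails and actin, and 0 of them passed in either test. Talin-1 (Tln1) measured 1017, 1154 and 1263 CPM in WT and 827, 1059.9 and 909 CPM in KO. Here KO replicate 2 lay above WT replicate 1, so the groups overlapped, and the log2 fold change was −0.30 ± 0.121 (adjusted p = 0.327 in edgeR). Talin-2 (Tln2), the form prominent in striated muscle, had 18.6 ± 3.66 CPM in WT and 17.8 ± 1.45 CPM in KO (SD, n = 3 each), a difference within the spread of WT (log2 −0.064 ± 0.144).

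The complex of integrin-linked kinase, parvin and PINCH, which binds kindlin and paxillin, had no member that passed and members on both sides of 0. The kinase-like scaffold Ilk (−0.053 ± 0.093) and alpha-parvin Parva (−0.14 ± 0.079) were within 2 standard errors of 0. PINCH-1 (Lims1) measured 137 ± 17.8 CPM in WT and 119 ± 13.3 in KO (SD, n = 3 each; log2 −0.20 ± 0.115), and PINCH-2 (Lims2) 314 ± 33.3 and 352 ± 26.1 CPM (0.17 ± 0.098). Both overlapped between the groups. The fold change of Ilk was 0.035 without WT replicate 2. Exons of Taf10 on the other strand cover 76.7% of the exon bases of Ilk, which makes the Ilk count uncertain.

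Among the actin crosslinkers and the tensin, all 4 were below 0 and 0 passed in either test. Tensin-1 (Tns1), which binds beta tails in mature adhesions, measured 3615, 4406 and 4022 CPM in WT and 3464, 3574 and 3214 CPM in KO. The highest KO value lay just under the lowest WT value, and the log2 fold change was −0.23 ± 0.110 (adjusted p = 0.370 in edgeR). Alpha-actinin-1 (Actn1) measured 1962, 2189 and 2021 CPM in WT and 1753, 1961 and 1727 CPM in KO. The groups did not overlap, but WT replicate 1 and KO replicate 2 were nearly equal, and the log2 fold change was −0.18 ± 0.094 (adjusted p = 0.394 in edgeR). Alpha-actinin-4 (Actn4, −0.11 ± 0.110) and filamin A (Flna, −0.10 ± 0.139), the actin gel protein that was the most counted member at 13924 ± 1312 CPM in WT and 12949 ± 1268 CPM in KO (SD, n = 3 each), overlapped between the groups.

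Of the 4 signalling and LIM adaptors of the plaque, 0 passed in either test. Focal adhesion kinase (Ptk2, −0.078 ± 0.092), its substrate p130Cas (Bcar1, −0.065 ± 0.065) and zyxin (Zyx, −0.12 ± 0.093), a LIM protein recruited under tension, were within 2 standard errors of 0. Paxillin (Pxn), the scaffold that binds Ptk2, was the only member whose KO libraries all lay above WT, at 54.5 to 56.2 CPM against 47.8 to 53.5 CPM. Its log2 fold change was 0.12 ± 0.062 (adjusted p = 0.409 in edgeR). Over the 17 plaque genes, 15 were below 0, with a median of −0.12, and leaving out single libraries moved that median over the range −0.19 to −0.079.

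**Figure D2:**
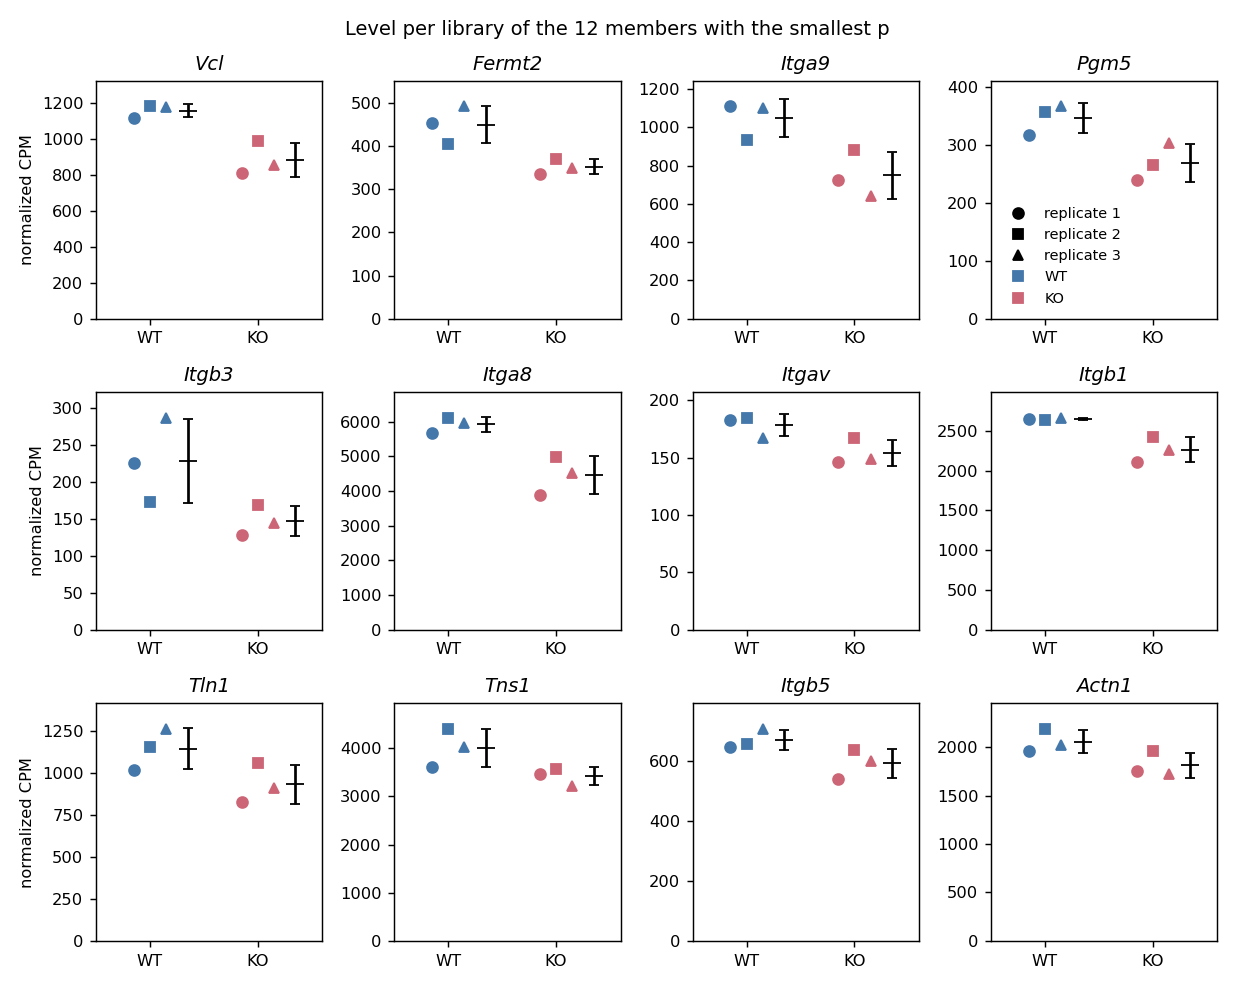
Normalized CPM (vertical axes, starting at 0) in each of the 3 WT and 3 KO libraries for the 12 members with the smallest p in edgeR; symbols give the replicate number, and the black bar gives mean ± SD of 3 libraries. KO libraries lie below WT libraries in all 12 panels except that of Tln1, where KO replicate 2 lies above WT replicate 1.

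The receptors are compared by CPM per kilobase of exon, since levels of different genes are comparable only per length. On that scale Itga8, the alpha 8 subunit typical of vascular smooth muscle and a receptor for nephronectin and fibronectin, was the most abundant alpha chain, with 804 ± 29.9 in WT and 606 ± 75.1 in KO (SD, n = 3 each). It made up 70.7% ± 1.82 (SD, n = 3) of all alpha chain transcripts per length in WT and 68.1% ± 2.77 (SD, n = 3) in KO, shares whose difference is close to their spread. Itga9 followed with 136 ± 13.1 in WT, then Itga5 (72.9 ± 13.9), Itga3 (44.3 ± 3.64) and Itga7 (36.8 ± 1.21). Itga1 (17.5 ± 0.0554) and Itgav (16.6 ± 0.915) were next and lay within their spread of each other. Exon length here is the union over all transcripts of a gene. The order of Itga3 and Itga7 and the closeness of Itga1 and Itgav depend on that choice. The union is 5710 bases for Itga3, 8092 for Itga7, 18599 for Itga1 and 10744 for Itgav. Their longest transcripts have 4861, 4020, 10967 and 7054 bases. Among beta chains, Itgb1, the partner of most alpha chains, had 650.1 ± 3.17 in WT, above Itgb5 (189 ± 9.36) and Itgb3 (38.7 ± 9.69), and the other beta chains were at or below Itgb4 (1.55 ± 0.387).

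**Figure D3:**
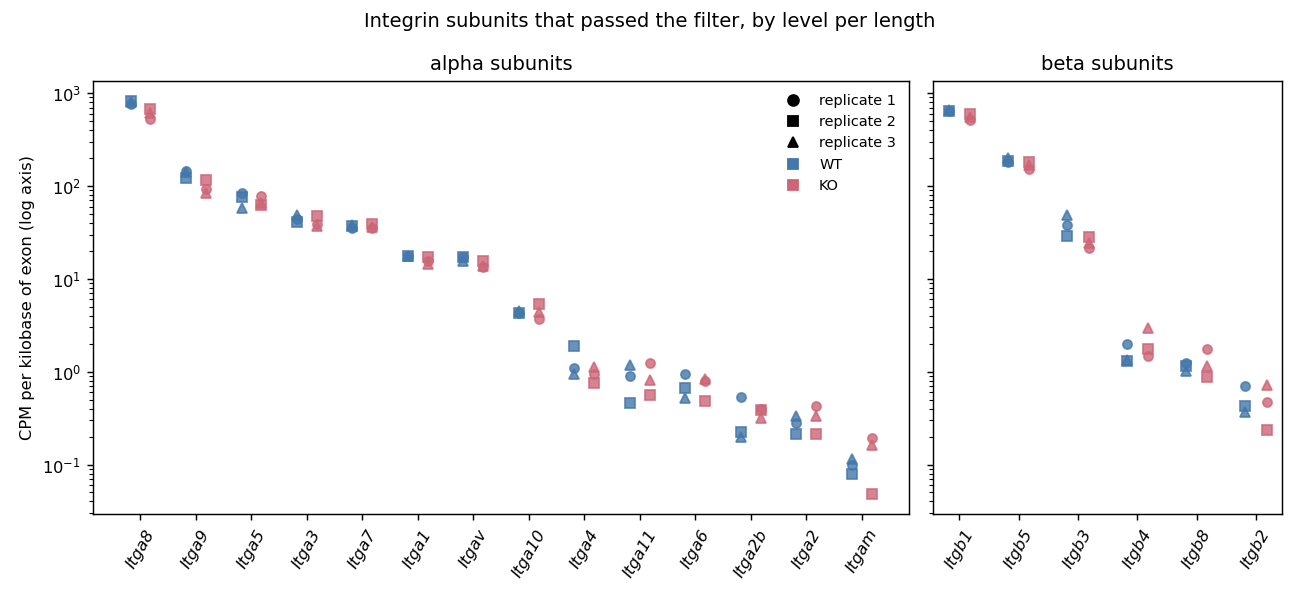
CPM per kilobase of annotated exon (log axis) in each library for the 14 alpha and 6 beta subunits that passed the filter, in order of the WT mean; WT is blue, KO is red, and symbols give the replicate number. Itga8 and Itgb1 stand above the other chains of their kind, with the KO points of both below all WT points.

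Of the 4 alpha chains that recognise the peptide motif RGD in matrix proteins, Itga8 and Itgav had KO values wholly below WT. Itga8, at chr2:12106632-12301922 (minus strand), measured 5683, 6118 and 5964 CPM in WT and 3879, 4979 and 4535 CPM in KO. All KO libraries lay below WT, with KO replicate 1 lowest and a wide gap between the groups. Its log2 fold change was −0.41 ± 0.121 (adjusted p = 0.275 in edgeR and 0.0145 in DESeq2). Itgav, the alpha chain that pairs with several beta chains, measured 183, 185 and 167 CPM in WT and 146, 167 and 149 CPM in KO. The highest KO value and the lowest WT value nearly touched, and the log2 fold change was −0.21 ± 0.077 (adjusted p = 0.293 in edgeR). The fibronectin receptor chain Itga5 (359.7 ± 68.6 and 339 ± 43.6 CPM, SD, n = 3 each) differed by less than its spread (log2 −0.085 ± 0.153). The platelet chain Itga2b (log2 0.19 ± 0.397) did not exceed 2.95 CPM, its value in WT replicate 1, where platelet markers were also highest.

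Itga9, which shares ligands such as tenascin-C and osteopontin with the structurally related Itga4, lies at chr9:118606690-118901003 (plus strand). It measured 1108, 931 and 1102 CPM in WT and 724, 883 and 641 CPM in KO. The groups did not overlap, although WT replicate 2 and KO replicate 2 came close to each other. The log2 fold change was −0.48 ± 0.133 (adjusted p = 0.264 in edgeR and 0.0242 in DESeq2). Itga4, also expressed by leukocytes, had a similar value of −0.48 ± 0.268 at 18.4 ± 7.11 CPM in WT and 13.2 ± 2.59 in KO, with overlapping groups. Its WT mean rested on WT replicate 2 (26.5 CPM), and without that library its log2 fold change was −0.12.

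Of the chains that bind collagen or laminin, 0 passed in either test, but DESeq2 gave no adjusted p to Itga2, Itga6 and Itga11. The collagen receptor chain Itga1 measured 324 to 326 CPM in WT and 269 to 321 CPM in KO (log2 −0.15 ± 0.079, adjusted p = 0.397 in edgeR), the only one of the 4 collagen-binding chains with groups that did not overlap. Itga10 (0.055 ± 0.126), Itga11 (0.039 ± 0.385) and Itga2 (0.23 ± 0.305) were within 1 standard error of 0 and at low levels. The laminin chains Itga3 (−0.10 ± 0.107), Itga6 (−0.014 ± 0.275) and Itga7 (0.0060 ± 0.071), of which Itga7 is the form of muscle, were also within 1 standard error of 0. An overlapping annotated gene on the same strand covers 33.5% of the exon bases of Itga10.

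Among the beta chains, Itgb1, Itgb3 and Itgb5 had KO values wholly below WT. Itgb1, the most abundant, measured 2653, 2640 and 2666 CPM in WT and 2112, 2421 and 2261 CPM in KO. The WT values were nearly equal and all KO values lay below them. Its log2 fold change was −0.23 ± 0.090 (adjusted p = 0.317 in edgeR and 0.0842 in DESeq2).

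Itgb3, which with Itgav forms the vitronectin receptor, lies at chr11:104608000-104670476 (plus strand). It measured 226, 172 and 287 CPM in WT and 128, 168 and 145 CPM in KO. WT replicate 2 lay just above KO replicate 2, and WT replicate 3 was highest of all. The log2 fold change of −0.63 ± 0.183 was the lowest of the 39 members (adjusted p = 0.273 in edgeR and 0.0290 in DESeq2), and it was −0.43 without WT replicate 3. Itgb5, a second partner of Itgav, measured 646, 658 and 709 CPM in WT and 541, 637 and 603 CPM in KO. Its groups were close but did not overlap, with a log2 fold change of −0.18 ± 0.086 (adjusted p = 0.378 in edgeR). Itgb4, the beta chain of hemidesmosomes (0.42 ± 0.282), and Itgb8 (0.15 ± 0.237) did not exceed 21 and 19.5 CPM and had overlapping groups.

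Integrin chains of leukocytes were close to the detection limit. Itgam and Itgb2, chains of the macrophage and neutrophil receptor, passed the filter at 0.492 ± 0.0914 and 1.52 ± 0.530 CPM in WT and 0.680 ± 0.390 and 1.46 ± 0.745 CPM in KO (SD, n = 3 each). Their log2 fold changes were 0.46 ± 0.501 and −0.050 ± 0.435, with overlapping groups. Of the exon bases of Itgam, 68.7% are shared with an annotated gene on the same strand, Gm49368, so its count is uncertain. The 7 members that did not pass were Itgal (62 counts over the 6 libraries), Itgb7 (56), Itgax (31), Itgae (12), Itgb6 (4), Itgad (0) and Itgb2l (0); a count of 0 allows up to 0.0219 CPM over all libraries, for counting error only. The 12 macrophage and myeloid markers summed to between 57.3 and 100.4 CPM in WT and 53.8 and 144 CPM in KO, and KO replicate 2 was lowest both for them and for Itgam and Itgb2. Markers of platelets summed to at most 11.6 CPM, those of neutrophils to at most 3.07 and those of lymphocytes to at most 2.03, and 0 neutrophil or lymphocyte markers passed the filter. The part of these cells in the values of Itgam and Itgb2 was not tested. The 2 rows that are not subunits were Itgbl1 (515 ± 45.2 and 456 ± 40.3 CPM, log2 −0.18 ± 0.098) and Itgb3bp (0.27 ± 0.197).

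Over the 20 tested subunits, 12 were below 0 and the median was −0.068. That median depended on single libraries, with a range of −0.14 to 0.011 and the value above 0 without WT replicate 1. KO values lay wholly below WT for 7 of the 20 (Itga8, Itga9, Itga1, Itgav, Itgb1, Itgb3 and Itgb5), where 11.3% of all rows did. Leaving out 1 or 2 libraries changed the sign of the fold change of Itga2, Itga2b, Itga3, Itga5, Itga6, Itga7, Itga10, Itga11, Itgam, Itgb2 and Itgb8.

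The libraries differed in cell type markers and in adhesion genes, and the order of the KO libraries depended on the gene list and the measure. Relative to the WT mean of each gene, the median log2 CPM over the 17 plaque genes was −0.23, −0.11 and −0.13 in KO replicates 1, 2 and 3, and −0.12, −0.23 and −0.072 over the 20 subunits. Smooth muscle markers, with a median log2 fold change of −0.13 beside −0.10 for the adhesion genes, had −0.16, 0.051 and −0.19 in those libraries. By this median, which weighs rare and abundant chains alike, the subunits were lowest in KO replicate 2, where smooth muscle markers were highest among KO. By summed CPM the subunits were instead highest among KO in that library, at 8796, 10542 and 9529 CPM in KO replicates 1, 2 and 3. The abundant chains Itga8, Itga9, Itgb1 and Itgb5 were also each highest among KO there. KO replicate 2 alone was also set against the 3 WT libraries, a fit that assumes the lone KO library varies like WT. The log2 fold change was then −0.22 for Vcl, −0.27 for Fermt2, −0.38 for Pgm5, −0.25 for Itga8, −0.24 for Itga9 and −0.44 for Itgb3. Of the 39 members, 28 were below 0 in that fit, though not the same 28 as with all libraries. Flna, Actn4, Ilk and Itga3 went from below to above 0, and Itga2, Itga11, Itgam and Itgb8 from above to below. Heart muscle markers, of which 8 of 11 passed the filter and 7 were above 0, summed to 79.2 to 112 CPM in WT and 90.2 to 165 CPM in KO. Without KO replicate 1, where they were highest, Vcl was −0.33, Fermt2 −0.32, Pgm5 −0.29, Itga8 −0.32, Itga9 −0.46 and Itgb3 −0.55. The part of these marker and mitochondrial differences in the adhesion values was not tested.

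**Figure D4:**
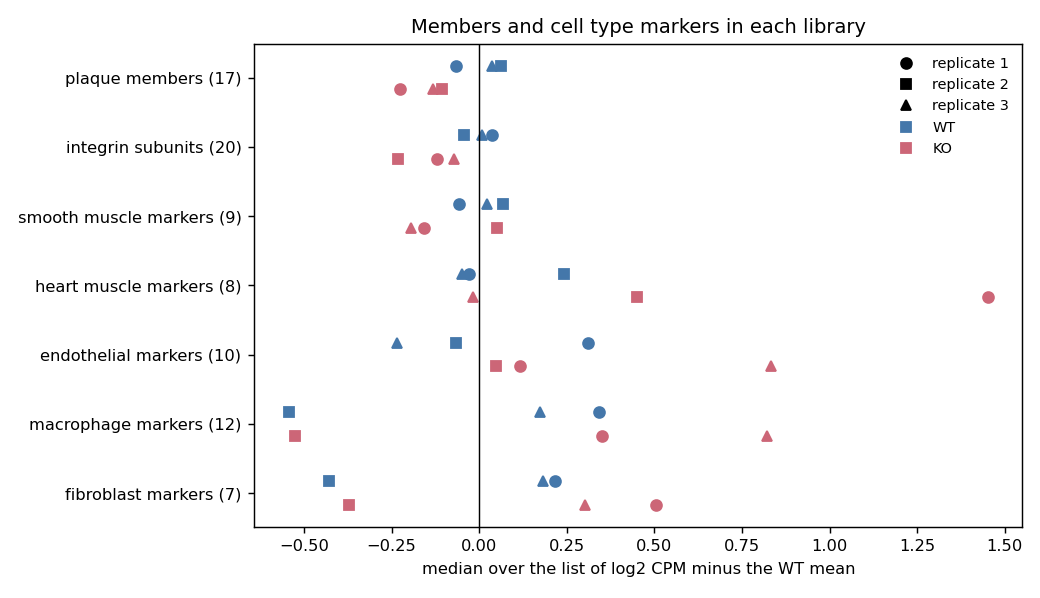
Median over each list of log2 CPM minus the WT mean (horizontal axis), 1 symbol per library, with the number of tested genes of the list in brackets. The 3 KO points of the plaque genes and of the integrin subunits lie left of all WT points, while the smooth muscle markers of KO replicate 2 lie among those of WT and those of the other KO libraries lie left of them.

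Fold changes were also lower for longer transcripts across the whole table. Tested rows were put in 5 equal bins by the length of their longest annotated transcript. In the bin of the shortest, the median log2 fold change was 0.075, and in the bin of the longest it was −0.086, with 68.0% of rows below 0. The median length of the tested members was 4678 bases, against 3478 over all 12477 tested rows with an annotation, and 14 of the 39 lay in the bin of the longest. Their median there was −0.18, and 11 of the 14 were below 0. In 5 bins by GC content, the median over all rows rose from −0.054 in the lowest to 0.072 in the highest. In that highest bin 33.7% of rows were below 0. The median GC content was 52.1% for the tested members and 49.8% for all annotated rows. Of the 39 members, 12 lay in the highest GC bin, with a median of −0.075 and 7 of the 12 below 0. With a smooth trend on length and GC content removed from each library, a correction chosen after the data were seen, Vcl was −0.37, Fermt2 −0.37, Pgm5 −0.41, Itga8 −0.35, Itga9 −0.44 and Itgb3 −0.61, while Itgav went from −0.21 to −0.13 and Itga1 from −0.15 to −0.035. The median over members was then −0.13 and that over all 12477 rows −0.026, and 0 members passed in edgeR. Before the correction, the median was −0.10 over members and 0.012 over all 14145 tested rows, a larger set than the 12477.

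**Figure D5:**
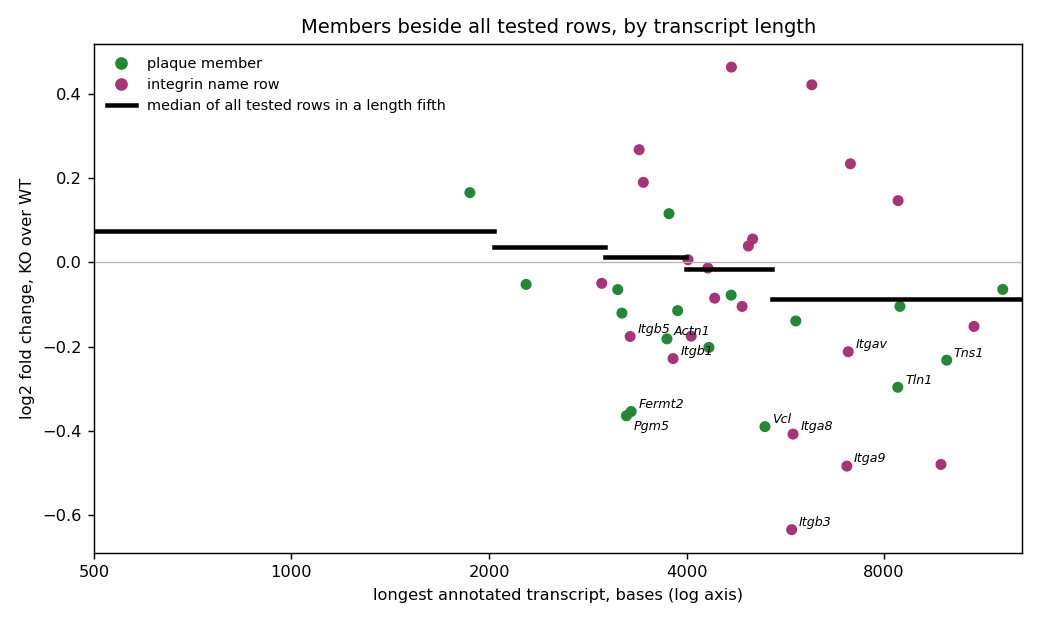
Log2 fold change (vertical axis) against the length of the longest annotated transcript (log axis) for the 39 tested members, with plaque genes in green and integrin name rows in purple; black bars are medians of all tested rows in 5 bins of length, from 0.075 to −0.086. The 6 members called by DESeq2 lie well below the bar of their length, but they were picked for being called lower in these same data.

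Beyond the members, 93 further adhesion genes in 4 lists were examined, and in edgeR 0 passed in any of them. Relatives and regulators of talin, kindlin and the PINCH complex had 8 of 13 tested genes below 0 and a median log2 fold change of −0.051. The 4 with the smallest p were the small GTPase Rap1a, which recruits talin (−0.25 ± 0.079), the PINCH partner Rsu1 (−0.17 ± 0.080), the exchange factor Rapgef1 (−0.090 ± 0.055) and Sharpin (0.14 ± 0.092), an inhibitor of integrin activation. Actin crosslinkers and LIM proteins at adhesions had 15 of 24 below 0 and a median of −0.061, and among those with the smallest p were the LIM proteins Tes (−0.42 ± 0.124) and Lpp (−0.34 ± 0.114), and supervillin Svil (−0.28 ± 0.091). KO values of these 3 lay wholly below WT. Of the 24, 5 lay wholly below and 2 wholly above, where 11.3% of all rows lay wholly below and 10.5% wholly above. At an unadjusted p under 0.05, 1 gene of the first list and 4 of the second were lower and 0 higher, where 7.76% of all rows were lower and 6.8% higher. DESeq2 gave an adjusted p to 9 of the 13 and 19 of the 24, and 0 of either list passed.

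Of the tested genes for adhesion signalling, 13 of 23 were below 0, with a median of −0.023. The Src-family kinase Yes1 (−0.28 ± 0.077), the Rac activator Dock1 (−0.26 ± 0.076) and the phosphatase Ptpn11 (249 ± 0.706 and 217 ± 2.88 CPM, SD, n = 3 each; −0.20 ± 0.057) had all KO values under the lowest WT value, and the kinase Pak1 (0.54 ± 0.170) had all KO values above the highest WT value, without passing (adjusted p between 0.266 and 0.277 in edgeR). Of these 23 genes, 7 had KO values wholly below WT and 3 wholly above, beside 11.3% and 10.5% of all rows. At an unadjusted p under 0.05, 3 of these 23 genes were lower and 2 higher, beside the same 7.76% and 6.8% of all rows. DESeq2 gave an adjusted p to 20 of the 23, not including Pak1, and 0 passed. Of the integrin ligands, 17 of 29 were below 0, with a median of −0.068, and DESeq2 called 2 of them lower, where 1.49% of all rows with an adjusted p were. At an unadjusted p under 0.05 in edgeR, 5 of the 29 were lower and 2 higher, beside 7.76% and 6.8% of all rows. Fibronectin (Fn1), a ligand of integrins with alpha 5, alpha 8 and alpha v chains, measured 4727, 4751 and 4846 CPM in WT and 2005, 3065 and 3912 CPM in KO. All KO libraries lay below WT, with KO replicate 1 lowest, and the log2 fold change was −0.67 ± 0.219 (adjusted p = 0.279 in edgeR and 0.0316 in DESeq2), or −0.45 without KO replicate 1. Fibrillin-1 (Fbn1), an RGD-bearing microfibril protein of the elastic lamellae, had 624 ± 84.8 CPM in WT and 448 ± 55.8 in KO (SD, n = 3 each), with −0.48 ± 0.126 (adjusted p = 0.264 in edgeR and 0.0214 in DESeq2). The collagen chains Col4a1 (−0.40 ± 0.137) and Col1a1 (−0.35 ± 0.132) completed the 4 with the smallest p.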

How the data were processed

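Poly(A) RNA of 6 aortic libraries (3 Mymsl WT, 3 Mymsl KO) was sequenced. Per the submitters' processing notes, Trimmomatic 0.36, STAR 2.6.0c, Subread 1.6.1 (featureCounts) and GRCm38 were used; the sources used here do not give the annotation or the strand setting. The authors deposited whole-number counts per gene, with 53735 rows and no normalization.

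From these counts, edgeR 4.0.16 (TMM scaling, filterByExpr with a minimum count of 10 and a minimum total of 15, quasi-likelihood test, Benjamini-Hochberg threshold 0.05) was fitted over all 14145 rows that passed. DESeq2 1.42.0, limma-voom (limma 3.58.1), other filters and scalings and leave-out fits were alternatives. CPM are TMM-normalized, and levels per length use union exons of GENCODE M21. The fit was tested on simulated data. The length and GC correction used mgcv 1.9.3. By the rule for named genes, every member that passed the filter is given with its log2 fold change, the 12 with the smallest unadjusted p with every library's value, and members that did not pass with their counts; each of 4 pathway lists gives its 4 genes with the smallest unadjusted p and any called by edgeR or DESeq2, except 1 gene that is not reported here. The members, gene lists and alternatives were chosen with earlier results of these data known, and the role classes after the values were seen. Total counts of 20048216 to 25521123 set the counting precision, and intervals and floors cover counting error only. No protein sequences were used here.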

Additional observations from a re-analysis of the deposited data

How the results depend on the processing

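For genes called across the transcriptome, edgeR gave 1, against 204 with the DESeq2 test and 192 with DESeq2 and no filter. With edgeR the number was 9 with no filter, 0 with the replicate block and 0 without WT replicate 3 and KO replicate 1. It was 0 to 3 when single libraries were left out. After removing the length and GC trend it was 0, but RP23-57D10.3, the 1 row called, has no annotated length and was not in that fit. The DESeq2 test with the filter gave that row no adjusted p. Members called numbered 0 in edgeR, 6 with the DESeq2 test and 5 with DESeq2 and no filter. With the replicate block the median of the members was −0.11; deviations of same-numbered libraries correlated at 0.12, 0.12 and −0.052, so the numbers were not taken as pairs, and not every library correlated best with its own number. The median of the members ranged over −0.14 to −0.10 with single libraries left out, and was −0.13 without KO replicates 1 and 3 and −0.13 with the length and GC trend removed. The median of the integrin subunits ranged over −0.14 to 0.011, above 0 without WT replicate 1, and was −0.12 at a mean count of at least 50, −0.16 without WT replicate 3 and KO replicate 1, and −0.24 without KO replicates 1 and 3. The causes were not tested. Sign changes of single genes were as follows. The log2 fold change of Itga7 was −0.0063 in edgeR and −0.0016 in DESeq2 with no filter, and −0.049 with the length and GC trend removed. Tln2 was 0.012 with that trend removed. Without WT replicate 3 and KO replicate 1, Itga3 was 0.0011, Itga2b −0.12, Itgb8 −0.24 and Tln2 0.10. Without KO replicates 1 and 3, Itgam was −1.02, Itga11 −0.57, Itga3 0.10, Itgb8 −0.38, Itga2 −0.36, Flna 0.050, Actn4 0.087 and Ilk 0.038. With single libraries left out, the ranges that crossed 0 were −0.19 to 0.25 for Itga6, −0.49 to 0.28 for Itgb2, −0.041 to 0.043 for Itga7, −0.23 to 0.040 for Itga5, −0.30 to 0.36 for Itga11, −0.062 to 0.79 for Itga2b, −0.10 to 0.035 for Ilk, −0.17 to 0.11 for Tln2, −0.17 to 0.35 for Itgb8, −0.0072 to 0.46 for Itga2 and −0.081 to 0.17 for Itga10. Low counts limit Itga2, Itga2b, Itga11, Itgam and Itgb2.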

Other observations

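Ratios between related genes or partners within a library were also computed, as descriptions. The log2 ratio of PINCH-1 (Lims1) to PINCH-2 (Lims2) was −1.20 ± 0.21 in WT and −1.56 ± 0.22 in KO (SD, n = 3 each, exact two-sided permutation p = 0.2). That of Itgb3 to Itgb5, alternative partners of Itgav, was −1.59 ± 0.32 in WT and −2.02 ± 0.087 in KO (SD, n = 3 each, exact two-sided permutation p = 0.2). That of Itga8 to its partner Itgb1 was 1.16 ± 0.057 in WT and 0.97 ± 0.086 in KO, lower in all 3 KO libraries (SD, n = 3 each, exact two-sided permutation p = 0.1, the smallest that 3 against 3 allow). Of these ratios, 0 can reach 0.05 in this design.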
